A study of Mus musculus with 15 samples.

Results

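Gene expression was compared in the embryo at e15.5 (the age in days) between GFP+ cells sorted from the pancreas of Ngn3-EGFP embryos and GFP+ cells sorted from the pancreas of Sox9-EGFP embryos. The arrays were chosen by their sample titles: 3 Ngn3-GFP+ and 3 Sox9-GFP+ arrays, 6 of the 15 in the series. In both lines transgenic males had been mated with wild-type CD1 females, so the embryos of either group had CD1 mothers. Their fathers came from different transgenic lines. Any difference in background between these lines cannot be told apart from the difference between the sorts. Pancreata were dissociated with collagenase B, and with trypsin where needed, several animals were pooled before each sort, and the cells with high GFP were kept. No drug or other agent was given. The other 9 arrays hold Sox9-GFP+ cells at e10.5, Sox9-GFP+ cells at postnatal day 23 (p23) and GFP- cells of Sox9-EGFP pups at p23, 3 each. They enter the fit, where they help to estimate the spread of each gene, and the p23 sort serves once for comparison.

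Sox9 is a transcription factor of the multipotent progenitors of the early pancreas and later of the ductal tree. Some cells of that tree switch on Neurog3 (Ngn3), the factor that starts endocrine development, and leave the epithelium as precursors of the hormone-producing islet cells. Notch signalling between neighbouring cells restrains that step, with Hes1 as the textbook target that holds Neurog3 down. The comparison therefore sets cells marked by the endocrine reporter beside cells marked by the progenitor and duct reporter at the stage when endocrine cells form. Each reporter marks cells by its EGFP, which may remain in a cell after the gene it reports has been turned off, and each array is a pool of animals and of whatever cells passed the GFP gate.

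Values are deposited array intensities, used here as log2(intensity + 16) and called levels below. A difference is the Ngn3-GFP+ mean minus the Sox9-GFP+ mean on that scale, given ± its standard error (SE) from limma with n = 3 arrays a group. A gene is said to have risen or fallen where limma's p, adjusted by the Benjamini-Hochberg method over all 16883 genes tested, was at most 0.05. Folds are on the same scale and understate the change of dim genes. The labels do not say that the 3 arrays of a group came from separate litters, so the p-values measure the spread between pooled sorts. Limma took a single spread per gene from all groups of the series and assumed it equal in each. The SE can therefore be too small for genes that vary mainly among the Ngn3-GFP+ arrays. It can be too large for genes steady in both groups but variable in the other arrays. Arrays are numbered as in the labels.

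The Ngn3-GFP+ arrays were less alike than the Sox9-GFP+ arrays. Across all genes tested the correlation between arrays lay between 0.988 and 0.995 among the Sox9-GFP+ arrays and between 0.933 and 0.952 among the Ngn3-GFP+ arrays, and between 0.883 and 0.946 for pairs of 1 array from each. The median SD of a gene was 0.09 in the Sox9-GFP+ group and 0.21 in the Ngn3-GFP+ group. In Ngn3-GFP+ array 2, 504 genes lay more than 2-fold below both of the other arrays, against 73 in array 1 and 80 in array 3. Ngn3-GFP+ array 3, and to a lesser extent array 2, held high levels of intestinal genes. Sox9-GFP+ array 1 had an embryonic globin, Hbb-y, at 9.98 where the other 5 arrays read between 5.85 and 6.35. Results that rest on one of these arrays are given below with and without it.

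Of the genes tested 41.7% passed: 3933 rose (23.3%) and 3101 fell (18.4%) in Ngn3-GFP+ cells. Large changes ran mostly downward, with 127 genes at least 2-fold higher (0.752%) and 749 at least 2-fold lower (4.44%). The rises were mostly small and sat among dim genes: 2838 of the 3933 were under 1.5-fold, and in the dimmest quartile of genes 1870 rose and 187 fell, whereas in the brightest quartile 223 rose and 1245 fell. The median difference was 0.35 in the dimmest quartile and -0.20 in the brightest. The split depended on the scaling, since 55.9% of the calls were rises in the values as deposited, 69.9% after median centring of each array, which moved the median difference of all genes from 0.04 to 0.16, and 42.5% after quantile normalization, which moved it to 0.00. The count of 7034 calls fell to 4644 without Sox9-GFP+ array 2 and to 3757 without Sox9-GFP+ array 3. Counts on gene lists are to be read against the shares over all genes: 41.7% of all genes were called, and so were 43.3% of the endocrine factors, 48.1% of the Notch genes, 40.7% of the acinar products, 44% of the adhesion genes and 39.3% of the immediate early genes described below. The directions below held under both rescalings for every gene named with a rise or a fall. After quantile normalization the calls of Onecut1, Onecut2, Ehf, Foxa1, Gata4, Sox11, Notch4, Jag2, Maml2, Chga, Tac1, Cdx2, Tff3, Clca1, Fabp2, Pecam1, Cdh1, Mir375, Lama3, Ctnnd2 and Sftpd were lost, and after centring those of Onecut1, Gata4 and Cdh1. Of the 298 genes that passed among the list members, the largest changes and the miRNA loci below, 185 kept their calls in each of the 6 fits that left out 1 array.

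**Figure D1:**
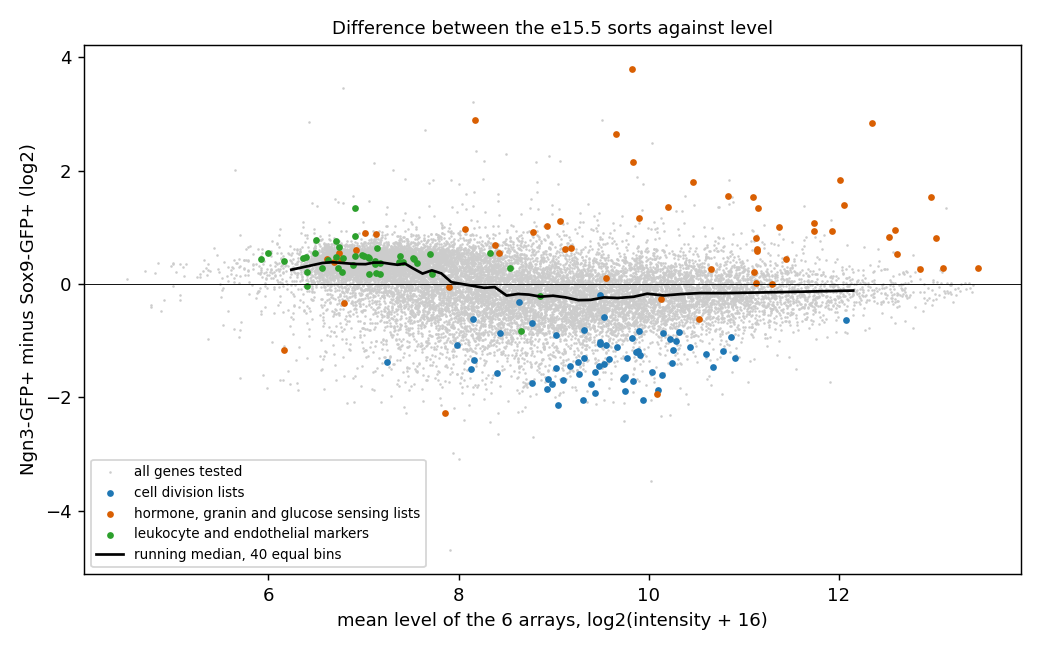
Difference between the e15.5 sorts (vertical axis, log2) against the mean level of the 6 arrays (horizontal axis, log2(intensity + 16)) for every gene tested, with genes of the cell division lists, of the hormone, granin and glucose sensing lists and of the leukocyte and endothelial lists in colour and a running median in black. The running median lies above 0 among dim genes and below 0 among bright ones, and the cell division genes lie below it, except Tk1, which lies on it.

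The genes behind both reporters did not change alike. Sox9 read 12.14, 12.10 and 12.11 in Sox9-GFP+ arrays 1 to 3 and 11.21, 10.13 and 11.14 in Ngn3-GFP+ arrays 1 to 3. The groups did not overlap, and the level was 2.45-fold lower in Ngn3-GFP+ cells (-1.29 ± 0.32, adjusted p 0.00803). The Sox9-GFP+ cells had been sorted for high GFP from the Sox9 reporter, so this direction was given in part by the sort. Neurog3 read 12.12, 11.82 and 11.66 in the Sox9-GFP+ arrays and 11.53, 11.75 and 12.21 in the Ngn3-GFP+ arrays. Here the groups overlapped fully, and the difference was -0.04 ± 0.23 (limma, adjusted p 0.911). Both sorts were far above the p23 arrays, where Neurog3 lay between 5.05 and 5.31, and above the Sox9-GFP+ cells of e10.5, where it lay between 9.23 and 10.24. In these bulk samples more Neurog3-expressing cells and more Neurog3 RNA per cell cannot be told apart. The other defining endocrine markers were present in both e15.5 sorts as well. Chga was at 11.20 or higher and Gcg at 12.46 or higher in each of the 6 arrays. The acinar markers Ctrb1 and Cpa1 were at 10.64 or higher in all 6. Other acinar markers were dimmer in Ngn3-GFP+ cells. Ptf1a lay between 6.32 and 7.47 there, against 8.71 or higher in Sox9-GFP+ cells, and Rbpjl between 7.27 and 8.34, against 9.11 or higher. The enzyme gene Cel read as low as 8.73, in Ngn3-GFP+ array 2, but its groups overlapped.

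Among transcription factors of endocrine development Neurog3, Pax4, Insm1 and Neurod1 were not called different, while Pax6, Mnx1 and Mlxipl rose. Of 34 listed, 30 were tested: 12 rose, 1 fell and 17 did not pass, with a median difference of 0.36 against 0.04 over all genes. Pax4, a factor of beta-cell precursors that acts soon after Neurog3, read 10.17, 9.76 and 9.45 in Sox9-GFP+ cells against 9.62, 10.05 and 10.56 in Ngn3-GFP+ cells, with overlapping groups and a difference of 0.28 ± 0.23 (adjusted p 0.328). Insm1, a zinc-finger factor of endocrine cells, differed by 0.37 ± 0.23 (adjusted p 0.214). Neurod1, a direct Neurog3 target, read 10.49, 10.60 and 10.28 against 11.11, 11.03 and 11.02, a difference of 0.60 ± 0.29 (adjusted p 0.112). The groups of Insm1 and Neurod1 did not overlap, but 56.2% of all genes tested had groups that did not. Their SEs are pooled over all 15 arrays and take in a wide spread at p23. Sox9-GFP+ arrays 1 to 3 of p23 read 5.48, 6.58 and 4.88 for Neurod1 and 6.11, 6.65 and 5.41 for Insm1. The missed calls therefore do not show that these genes were alike in the e15.5 sorts. Nkx2-2, which endocrine cells keep, differed by 0.45 ± 0.18 (adjusted p 0.0589), and this passed without Ngn3-GFP+ array 1 (adjusted p 0.00883) and after centring (adjusted p 0.027).

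Pax6, a homeodomain factor needed for hormone genes, read 11.29, 11.64 and 11.30 in Sox9-GFP+ cells against 12.07, 12.61 and 12.16 in Ngn3-GFP+ cells, so every Ngn3-GFP+ array was above every Sox9-GFP+ array (0.87 ± 0.21, adjusted p 0.00817). Mnx1, a factor of beta cells, read 6.70, 6.74 and 6.73 against 7.23, 7.83 and 8.17 (1.02 ± 0.22, adjusted p 0.0042). Mlxipl, the glucose-responsive factor ChREBP, read 10.11, 10.35 and 9.98 against 11.06, 12.08 and 11.51 (1.40 ± 0.23, adjusted p 0.000945). Insrr, a receptor of the insulin receptor family that stood on the same list, was 2.64-fold higher (1.40 ± 0.15, adjusted p 9.7e-05). The 4 genes kept their calls whichever single array was left out. Myt1 (0.83 ± 0.21), Rfx6 (0.75 ± 0.23) and Isl1 (0.79 ± 0.27) also rose, with less support. Without Sox9-GFP+ array 3 the adjusted p was 0.0513 for Myt1, 0.0831 for Rfx6 and 0.0937 for Isl1, and that fit left 7 of the 12 rises on the list. Rfx6 also missed the threshold without Ngn3-GFP+ array 2 (adjusted p 0.0509), and Isl1 without Ngn3-GFP+ array 1 (0.0506) or 2 (0.0989) and without Sox9-GFP+ array 1 (0.105).

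The single fall among these factors was Sox11, an SRY-box factor of immature cells, at 12.27, 11.67 and 11.43 in Sox9-GFP+ cells against 9.83, 10.56 and 11.71 in Ngn3-GFP+ cells. The groups overlapped through Ngn3-GFP+ array 3, and the fall of 1.08 ± 0.35 (adjusted p 0.0258) was not called without Ngn3-GFP+ array 1 (adjusted p 0.107) or 2 (0.0623), without Sox9-GFP+ array 1 (0.0997) or 2 (0.0517), or after quantile normalization (0.053).

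**Figure D2:**
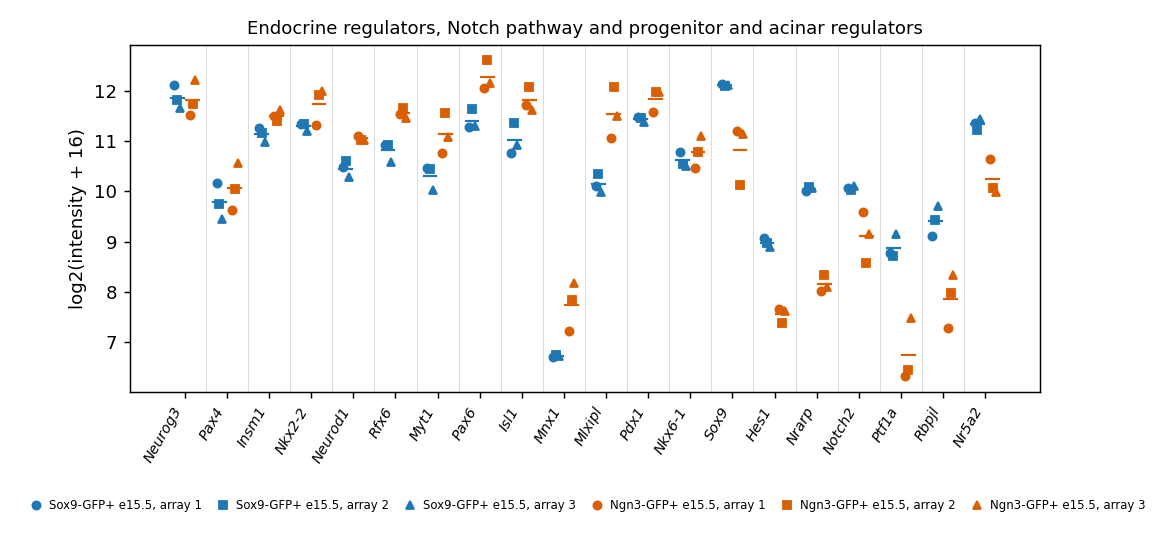
Level (vertical axis, log2(intensity + 16)) of 20 regulators in each of the 6 arrays, with Sox9-GFP+ cells in blue, Ngn3-GFP+ cells in orange, a marker shape for each array and a short line at each group mean. Neurog3 and Pax4 overlap between the groups, Mlxipl and Pax6 are higher in every Ngn3-GFP+ array, and Sox9, Hes1, Nrarp and Ptf1a are lower in every Ngn3-GFP+ array.

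Several receptors and targets of Notch were lower in Ngn3-GFP+ cells. Of 27 tested pathway genes 7 fell and 6 rose, and the median difference of -0.03 was near that of all genes, so the list as a whole did not shift. Nrarp, a feedback inhibitor and direct target of Notch, read 10.01, 10.09 and 10.06 in Sox9-GFP+ cells against 8.02, 8.33 and 8.10 in Ngn3-GFP+ cells, a 3.73-fold fall (-1.90 ± 0.21, adjusted p 9.85e-05). Hes1 read 9.07, 8.97 and 8.89 against 7.66, 7.37 and 7.62 (-1.42 ± 0.23, adjusted p 0.00103). Another target, Hey1, fell by 0.90 ± 0.21. The receptors Notch2 (-0.97 ± 0.20) and Notch1 (-0.65 ± 0.13), the ligand Jag1 (-0.90 ± 0.16) and the DNA-binding partner Rbpj (-0.45 ± 0.12) fell too, with adjusted p between 0.00144 and 0.00974. None of the 7 overlapped between the groups, and 7 or 8 pathway genes fell in each of the 6 fits that left out 1 array.

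Dll1, the ligand shown by Neurog3-positive cells, read 8.44, 7.43 and 8.05 against 7.80, 7.68 and 8.17 (-0.09 ± 0.23, adjusted p 0.778). Hes6, a Hes1 antagonist, differed by -0.11 ± 0.16 (adjusted p 0.62). Hes5, another Notch-responsive repressor, went the other way from Hes1, at 8.16, 8.09 and 8.05 against 8.80, 8.86 and 8.86 (0.74 ± 0.13, adjusted p 0.00134). Numbl, a relative of the Notch inhibitor Numb, rose by 0.52 ± 0.13 (adjusted p 0.00716). The 4 other rises, Jag2, Notch4, Maml2 and Maml3, were between 0.36 and 0.48 and were each lost in 3 or more of the leave-one-out fits; 2 rises remained without Ngn3-GFP+ array 1 or without Sox9-GFP+ array 3.

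Regulators shared by progenitors and ducts went in both directions. Of 22 tested, 5 rose and 6 fell, with a median of -0.18. Pdx1, the factor that marks the pancreatic field and later beta cells, read 11.48, 11.47 and 11.38 against 11.57, 11.99 and 11.99 (0.41 ± 0.21, adjusted p 0.126). Nkx6-1, a factor of trunk progenitors and beta cells, differed by 0.16 ± 0.29 (adjusted p 0.668). Besides Sox9 and Hes1, Onecut1 (-0.50) and the epithelial factors Ehf (-1.05) and Elf3 (-1.02) fell, and Onecut2 (0.56), Onecut3 (0.58), Hnf4a (0.45), Foxa1 (0.43) and Nkx6-2 (0.42) rose. Of these 8 only Onecut3 kept its call in all 6 fits that left out 1 array. The others were each lost without Sox9-GFP+ array 3 (adjusted p 0.0589 to 0.109) and without 2 or more of the other arrays. Without Sox9-GFP+ array 3 the list had 1 rise and 2 falls.

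Most acinar regulators fell. Of 9 tested acinar transcription factors 6 fell and 0 rose, and the median was -0.87. Ptf1a, the factor that commits cells to the acinar fate, read 8.78, 8.71 and 9.15 in Sox9-GFP+ cells against 6.32, 6.44 and 7.47 in Ngn3-GFP+ cells, 4.4-fold lower (-2.14 ± 0.31, adjusted p 0.000548). Its partner Rbpjl read 9.11, 9.43 and 9.72 against 7.27, 7.97 and 8.34 (-1.56 ± 0.27, adjusted p 0.00161). Nr5a2 (-1.10 ± 0.18), Bhlha15, the secretory-cell factor Mist1 (-0.87 ± 0.21), and Myc, a growth regulator of early acinar progenitors (-1.74 ± 0.29), fell without overlap. Gata4 fell by 0.73 ± 0.25, a call that was lost without Ngn3-GFP+ array 1 (adjusted p 0.14) and without any 1 of the Sox9-GFP+ arrays (0.0606 to 0.0967).

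Digestive enzymes and other acinar products followed less evenly. Of 27 tested, 10 fell and 1 (Dbpht2, by 0.70, called in 2 of the 6 leave-one-out fits) rose, and the median was -0.62. Cckar, the cholecystokinin receptor of acinar cells, read 11.10, 11.23 and 11.53 against 8.35, 8.78 and 9.76 (-2.33 ± 0.28, adjusted p 0.000167). Cpa1, a carboxypeptidase also found in early multipotent tip cells, read 12.74, 12.65 and 12.91 against 10.64, 10.74 and 11.75 (-1.72 ± 0.26, adjusted p 0.00072). The elastase Cela1 read 9.72, 10.29 and 10.95 against 9.17, 8.24 and 8.5 (-1.68 ± 0.31). In contrast the chymotrypsinogen Ctrb1 read 13.16, 13.57 and 13.69 against 13.28, 13.33 and 13.37 (-0.15 ± 0.24, adjusted p 0.643), near the top of the array's range. Trypsinogens, elastases and Reg genes are families with similar sequences whose probe sets may read each other's RNA. The 10 falls were 5 without Ngn3-GFP+ array 2 or Sox9-GFP+ array 3, 6 without Sox9-GFP+ array 2 and 13 without Ngn3-GFP+ array 1.

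Islet hormones were bright in both sorts and higher in Ngn3-GFP+ cells for part of the list. Of 19 tested hormones and peptides 9 rose and 3 fell, with a median of 0.82. Npy, neuropeptide Y, which developing islet cells make, showed the largest rise of any gene that the naming rule covers. It read 8.0, 8.06 and 7.71 in Sox9-GFP+ cells against 12.31, 11.19 and 11.68 in Ngn3-GFP+ cells, 13.9-fold higher (3.80 ± 0.23, adjusted p 9.05e-07). Iapp, the amylin secreted with insulin, read 11.64, 12.60 and 12.36 against 13.78, 13.89 and 13.55 (1.54 ± 0.30, adjusted p 0.0029). Ins2 read 11.59, 12.43 and 12.32 against 13.11, 13.06 and 13.06 (0.96 ± 0.24, adjusted p 0.00885). In both genes Sox9-GFP+ array 1 was the lowest array and the groups did not overlap. Nnat, a small membrane protein of beta cells, rose by 1.84 ± 0.37, and Ucn3, a peptide of mature beta cells, rose from a mean near the dim end of the array by 0.88 ± 0.14.

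Gcg, the glucagon gene, read 12.46, 12.68 and 12.69 against 13.45, 13.50 and 13.33, higher in every Ngn3-GFP+ array. The difference of 0.82 ± 0.32 did not pass (limma, adjusted p 0.0541, and 0.023 after centring). Its pooled SE takes in Sox9-GFP+ arrays 1 to 3 of p23, at 7.80, 9.23 and 9.12, so the miss does not show equal levels. Ghrl, the ghrelin gene, read 11.61, 12.63 and 12.09 against 12.87, 13.08 and 12.90 (0.84 ± 0.39, adjusted p 0.0932). Sst read 10.12, 12.15 and 11.79 against 13.21, 12.37 and 12.68 and rose by 1.40 ± 0.46 (adjusted p 0.0279). The Sst call was lost without Sox9-GFP+ array 1, which was far below its group (adjusted p 0.121), and without Ngn3-GFP+ array 1 (0.088). Ppy (0.58 ± 0.51) and Pyy (0.28 ± 0.44) were not called.

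Peptides that enteroendocrine cells of the gut also make divided the Ngn3-GFP+ arrays. Sct, the secretin gene, read 11.13, 11.06 and 10.98 in Sox9-GFP+ cells against 7.43, 9.54 and 10.39 in Ngn3-GFP+ cells, a fall of 1.94 ± 0.56 (adjusted p 0.0165). Tac1, the substance P precursor, read 8.80, 9.12 and 9.07 against 5.85, 6.0 and 8.31, a fall of 2.28 ± 0.74 (adjusted p 0.0258) that missed the threshold in 4 of the 6 leave-one-out fits, without Ngn3-GFP+ array 1 (0.0877) or 2 (0.0798) and without Sox9-GFP+ array 2 (0.0667) or 3 (0.0713). In both genes Ngn3-GFP+ array 3 was the nearest to the Sox9-GFP+ arrays and array 1 the farthest. Gip, the incretin of gut K cells, read 9.26, 8.60 and 8.41 against 9.76, 11.55 and 11.44 (2.16 ± 0.83, adjusted p 0.0506, and 0.0315 without Ngn3-GFP+ array 1). Cck read 10.12, 9.50 and 8.87 against 7.85, 10.19 and 10.77 and was not called (0.10 ± 0.80). Gast, the gastrin gene that fetal islets express, rose by 1.55 ± 0.28 (adjusted p 0.00199), with Ngn3-GFP+ array 1 at 10.69 and arrays 2 and 3 at 12.04 and 12.09. Gal fell by 1.17 ± 0.40 with overlapping groups and was called in 2 of the 6 leave-one-out fits.

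Granule genes mostly rose. Of 17 tested granins and prohormone-processing genes 11 rose and 0 fell, with a median of 0.63. Slc30a8, the zinc transporter of insulin granules, read 9.73, 11.64 and 11.41 in Sox9-GFP+ cells against 14.64, 13.68 and 12.99 in Ngn3-GFP+ cells, 7.17-fold higher (2.84 ± 0.48, adjusted p 0.00127). The granin Scg2 read 9.80, 10.78 and 10.41 against 12.16, 11.82 and 11.60 (1.53 ± 0.34, adjusted p 0.00508). Pcsk1, the convertase that cuts proinsulin, rose by 1.01 ± 0.29 (adjusted p 0.016), and Chga, the best-known granin, by 0.93 ± 0.35 (0.0479). Chgb, already at 13.18 or more in every array, was not called (0.28 ± 0.41). Pcsk1 missed the threshold without Ngn3-GFP+ array 1 (0.0608) or Sox9-GFP+ array 1 (0.0613), Chga passed in 1 of the 6 leave-one-out fits, and the 11 rises were 5 or 6 without Sox9-GFP+ array 1 or 3 or Ngn3-GFP+ array 1 or 2.

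Among 30 tested genes of regulated exocytosis 12 rose and 4 fell (median 0.42). Sytl4, the granule-docking protein granuphilin, read 7.72, 8.17 and 8.27 against 11.22, 10.95 and 10.68 (2.89 ± 0.17, adjusted p 9.05e-07). Its partners in docking, the small GTPase Rab27a (1.00 ± 0.18) and the Rab effector Rph3al (0.96 ± 0.13), rose, as did the synaptotagmin Syt13 (1.13 ± 0.19), each without overlap. Cadps, which primes granules for release, rose (0.85 ± 0.22) while its relative Cadps2 fell (-1.07 ± 0.26). The vesicular monoamine transporter Slc18a2 fell by 0.80 ± 0.18. Without Sox9-GFP+ array 2 or 3, and after quantile normalization, 7 members rose.

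Genes by which beta cells sense nutrients and fire rose in 14 of 20 tested, with 0 falls and a median of 0.80. Glp1r, the receptor of the incretin GLP-1, read 6.23, 7.10 and 6.85 in Sox9-GFP+ cells against 9.90, 9.89 and 9.08 in Ngn3-GFP+ cells, 7.44-fold higher (2.90 ± 0.23, adjusted p 9.84e-06). G6pc2, the islet glucose-6-phosphatase, read 7.75, 8.74 and 8.51 against 12.17, 10.54 and 10.23 (2.65 ± 0.41, adjusted p 0.000786). Slc2a2, the glucose transporter GLUT2, read 9.34, 9.55 and 9.69 against 11.54, 10.80 and 10.32 (1.36 ± 0.23, adjusted p 0.00134). Ngn3-GFP+ array 1 was the highest of its group in all of these and in Slc30a8 and Sytl4, and array 3 the lowest. The sulfonylurea receptor Abcc8 (1.35 ± 0.20), the folding enzyme Ero1b (1.80 ± 0.32), the calcium channel subunits Cacna1a (1.16 ± 0.26) and Cacna1c (1.03 ± 0.22) and the glucagon receptor Gcgr (0.97 ± 0.17) rose as well. The GIP receptor Gipr rose by 1.11 ± 0.33, a call that was lost without Ngn3-GFP+ array 2 (adjusted p 0.0688), Sox9-GFP+ array 1 (0.0597) or Sox9-GFP+ array 3 (0.0523). Between 11 and 13 members rose in the 6 fits that left out 1 array.

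**Figure D3:**
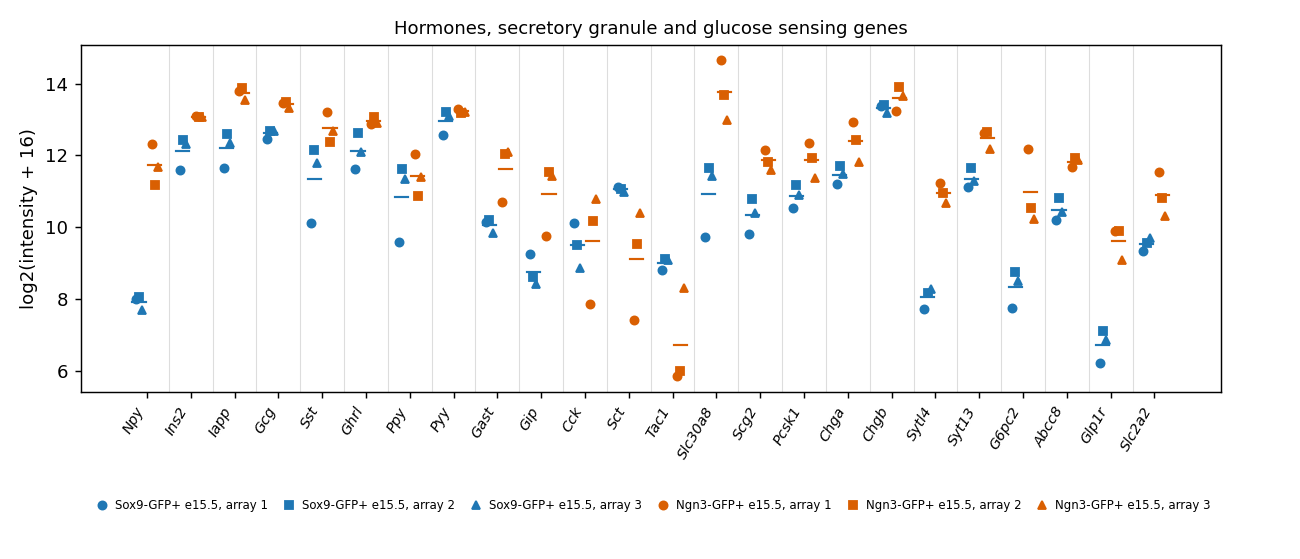
Level (vertical axis, log2(intensity + 16)) of 24 hormone, granule and glucose sensing genes in each of the 6 arrays, with Sox9-GFP+ cells in blue, Ngn3-GFP+ cells in orange, a marker shape for each array and a short line at each group mean. Npy, Sytl4, Glp1r and G6pc2 lie apart in the groups, Ppy, Pyy and Cck overlap, and Sct and Tac1 are lower in Ngn3-GFP+ cells with wide spread.

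Outside the gene lists the largest rises that the naming rule covers were Pappa2, a protease that frees insulin-like growth factors from their binding proteins, and Ppp1r1a, a phosphatase inhibitor. Pappa2 read 5.96, 7.07 and 6.61 against 9.76, 10.94 and 8.59 (3.22 ± 0.46, adjusted p 0.000529). Ppp1r1a read 8.55, 8.97 and 8.86 against 11.62, 11.32 and 10.89 (2.48 ± 0.19, adjusted p 5.13e-06). Both kept the groups apart.

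Genes of 5 miRNA loci were read by the array and were looked at after their values were seen, because miR-7 and miR-375 are known islet miRNAs. The probe sets read RNA from the gene locus and not the mature miRNA. The mature sequences below, from RefSeq (GRCm38.p6), show why the loci are grouped: miR-7a-5p and miR-7b-5p share the seed (bases 2 to 8, in capitals), which miR-153-3p does not.
mmu-miR-7a-5p (Mir7-2, chr7:78888295-78888317, plus strand): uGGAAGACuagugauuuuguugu
mmu-miR-7b-5p (Mir7b, chr17:56243017-56243040, plus strand): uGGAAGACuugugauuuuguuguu
mmu-miR-153-3p (Mir153, chr12:117250860-117250881, plus strand): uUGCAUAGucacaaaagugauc

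Of the 3 loci with the miR-7 seed, 2 rose. Mir7b read 7.23, 8.78 and 8.48 in Sox9-GFP+ cells against 10.15, 10.16 and 9.49 in Ngn3-GFP+ cells (1.77 ± 0.37, adjusted p 0.00403). Mir7-2 read 7.39, 7.24 and 6.99 against 7.98, 8.59 and 7.66 (0.87 ± 0.21, adjusted p 0.00719). The third, Mir7-1, gives the same mature miR-7a-5p from within the bounds of Hnrnpk, a broadly expressed RNA-binding protein gene, and was not called (-0.15 ± 0.36). Hnrnpk itself differed by 0.01 ± 0.09 (adjusted p 0.914). Mir153 lies within the bounds of Ptprn2, a granule membrane phosphatase gene of the granin list. Mir153 rose by 1.55 ± 0.33 (adjusted p 0.00435) and Ptprn2 by 0.81 ± 0.27 (0.0284), the latter lost without Ngn3-GFP+ array 2 (0.0992), Sox9-GFP+ array 1 (0.0736) or Sox9-GFP+ array 3 (0.0866). Mir375 rose by 0.42 ± 0.10 (adjusted p 0.00646), a small change at a dim probe set, of the size seen over the dimmest genes at large.

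Genes of cell division fell almost without exception. All 32 tested mitosis genes fell, with differences from -2.13 to -0.86 and a median of -1.51. Of 31 tested replication and S-phase genes 29 fell and 0 rose, with a median of -1.08. Of all genes tested 18.4% fell. Both counts stood after median centring and after quantile normalization, and between 31 and 32 mitosis genes and between 28 and 29 replication genes fell when any 1 of the 6 arrays was left out.

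Cdk1, the kinase that drives entry into mitosis, read 10.82, 10.94 and 11.11 in Sox9-GFP+ cells against 9.86, 8.11 and 8.77 in Ngn3-GFP+ cells (-2.04 ± 0.31, adjusted p 0.000737). Ect2, which directs the cleavage furrow, read 10.20, 9.98 and 10.18 against 8.87, 7.12 and 7.96 (-2.13 ± 0.32, adjusted p 0.000622). The spindle checkpoint kinase Bub1 read 10.43, 10.17 and 10.40 against 8.69, 7.72 and 8.46 (-2.05 ± 0.24). In all of these Ngn3-GFP+ array 2 was the lowest and array 1 the highest of its group, and no Ngn3-GFP+ array reached the Sox9-GFP+ range. Mki67, the common proliferation marker, read 10.87, 10.58 and 10.66 against 9.95, 9.56 and 9.71, so a clear signal remained in Ngn3-GFP+ cells (-0.96 ± 0.12, adjusted p 0.000254).

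Among replication genes, Rrm2, a subunit of the enzyme that makes deoxynucleotides, read 10.45, 10.28 and 10.48 against 8.79, 8.24 and 8.39 (-1.93 ± 0.23, adjusted p 0.000169). The origin-licensing factor Cdc6 (-1.74 ± 0.29) and the helicase subunit Mcm3 (-1.45 ± 0.20) fell, and Pcna, the polymerase clamp, fell less (-0.64 ± 0.12). Those that did not pass were E2f1 (-0.32 ± 0.15, adjusted p 0.107) and Tk1 (-0.18 ± 0.25, adjusted p 0.566). Without Ngn3-GFP+ array 1 E2f1 fell (adjusted p 0.0469), and without Ngn3-GFP+ array 2, which read 10.10 for Tk1 where the others read 9.19 and 8.88, so did Tk1 (0.0396).

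Among regulators of entry into and exit from the cycle, cyclin D1 and its kinase fell and the inhibitors p57 and p27 were not called. Ccnd1, the cyclin D1 that carries growth signals to the cycle, read 11.33, 11.22 and 11.20 against 10.24, 8.08 and 9.93 (-1.84 ± 0.39, adjusted p 0.00433). Its partner kinase Cdk6 read 10.03, 10.06 and 10.01 against 8.97, 6.37 and 8.89 (-1.96 ± 0.48, adjusted p 0.008). In both, array 2 stood far below the other Ngn3-GFP+ arrays, which were themselves below every Sox9-GFP+ array. Of 19 tested genes of this list 6 fell and 1 rose. The share called, 36.8%, was below the 41.7% of all genes, so only single members are described. The 1 rise was that of the inhibitor Cdkn2a (0.31, limma, adjusted p 0.0439), called in 1 of the 6 leave-one-out fits. The cyclin-dependent kinase inhibitors Cdkn1c (p57, -0.25 ± 0.15, adjusted p 0.199) and Cdkn1b (p27, -0.28 ± 0.20, adjusted p 0.268; 0.0499 without Ngn3-GFP+ array 3) were not called. The antiproliferative gene Btg1 fell by 1.33 ± 0.38 (adjusted p 0.0148).

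Some promoters of the mitosis genes hold letters known from cell cycle genes. The 4 shown here were picked from those that hold both the CHR element and the CCAAT box, to show what these look like; TTTGAA stood in only 9 of 26 promoters of the list. The 150 bases before the RefSeq start of 4 of them follow (GRCm38.p6, written along the gene's own strand), with the CHR element (TTTGAA) and the CCAAT box in capitals, on either strand (TTCAAA and ATTGG on the opposite one); no matches overlapped.
Cdk1 (chr10:69352913-69353062, minus strand): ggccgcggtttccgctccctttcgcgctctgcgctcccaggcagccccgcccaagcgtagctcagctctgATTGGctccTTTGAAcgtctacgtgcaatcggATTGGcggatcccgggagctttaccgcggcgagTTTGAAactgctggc
Ect2 (chr3:27153879-27154028, minus strand): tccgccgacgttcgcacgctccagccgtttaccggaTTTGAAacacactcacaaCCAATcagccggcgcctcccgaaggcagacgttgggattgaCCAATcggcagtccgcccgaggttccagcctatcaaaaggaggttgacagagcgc
Cdc20 (chr4:118437344-118437493, minus strand): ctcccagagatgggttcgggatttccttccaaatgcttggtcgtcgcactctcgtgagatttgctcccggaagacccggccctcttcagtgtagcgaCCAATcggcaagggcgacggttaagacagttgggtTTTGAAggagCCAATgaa
Ube2c (chr2:164769779-164769928, plus strand): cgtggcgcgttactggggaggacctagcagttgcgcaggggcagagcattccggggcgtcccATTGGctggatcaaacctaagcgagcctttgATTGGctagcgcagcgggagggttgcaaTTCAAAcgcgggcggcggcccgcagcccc

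In the 250 bases before the start, searched on both strands, CCAAT stood in 21 of the 26 mitosis genes with a listed promoter (80.8%), against 34.5% of all 27025 promoters in the table. TTTGAA stood in 9 of the 26 (34.6%), against 16.3% of all promoters. Among the 24 replication genes that fell and have a listed promoter, CCAAT stood in 15 (62.5%) and TTTGAA in 3 (12.5%). The E2F letters TTTCCCGC or TTTGGCGC stood in 5 of these 24 (20.8%), in 0 of the 26 mitosis genes and in 1.35% of all promoters. These matches describe the letters and not binding, and no test was made. The lists were chosen for their roles and not for their promoters. Cdc20, whose product activates the anaphase-promoting complex, read 10.31, 10.16 and 10.34 against 8.85, 7.78 and 8.90 (-1.76 ± 0.26), and Ube2c, the ubiquitin-conjugating enzyme of that complex, 10.67, 10.37 and 10.69 against 9.17, 8.55 and 9.08 (-1.65 ± 0.26).

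Of 33 tested ductal markers 5 fell and 2 rose, with a median of -0.24. The share called, 21.2%, was below the 41.7% of all genes, so the list as a whole gave no result and single genes are described. The tight junction gene Cldn10 read 10.70, 11.00 and 11.12 in Sox9-GFP+ cells against 9.58, 7.47 and 8.55 in Ngn3-GFP+ cells, 5.31-fold lower (-2.41 ± 0.34, adjusted p 0.000518). Wfdc2, a secreted protein of ductal epithelium, fell by 1.67 ± 0.25, and Cldn3, another tight junction gene, by 0.99 ± 0.28 (adjusted p 0.0151; 0.0584 without Ngn3-GFP+ array 2 and 0.0537 without Sox9-GFP+ array 3). Krt19, the classical duct keratin, overlapped at 9.59, 10.01 and 10.28 against 9.94, 9.53 and 10.13 (-0.09 ± 0.22, adjusted p 0.767). Without Ngn3-GFP+ array 1 there were 11 falls, and without Sox9-GFP+ array 3 there were 2.

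Of 25 tested genes of epithelial adhesion and transition 8 fell and 3 rose. Epcam, a surface marker of epithelia, was at 11.84, 11.84 and 11.85 against 11.88, 11.59 and 11.72 and was not called (-0.11 ± 0.11, adjusted p 0.422). The epithelial factor Grhl2 fell by 1.08 ± 0.12 (adjusted p 0.000128) and E-cadherin, Cdh1, by 0.37 ± 0.13, a call that was lost after either rescaling, without Ngn3-GFP+ array 2 (adjusted p 0.137) and without any 1 of the Sox9-GFP+ arrays (0.0562 to 0.108). Vim, vimentin of migrating and immature cells, fell as well (-0.71 ± 0.10, adjusted p 0.000592). There were 4 falls without Ngn3-GFP+ array 2, without any 1 of the Sox9-GFP+ arrays, or after centring.

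The next lists held no more calls than genes at large, of which 41.7% were called, and only single members are described. Of 23 tested basement membrane and integrin genes 7 fell and 1 rose (34.8% called, median 0.02). The laminin subunit Lama1 read 9.67, 9.46 and 9.33 against 7.74, 7.79 and 8.20 (-1.58 ± 0.14, adjusted p 1.64e-05), and the integrins Itga6, counted on the adhesion list (-1.05 ± 0.18), and Itgb1 (-0.64 ± 0.13) fell without overlap. Of 20 tested YAP and TEAD genes 3 fell and 2 rose (25% called). Ccn1, a YAP target and matrix protein, was 4.31-fold lower (-2.11 ± 0.28, adjusted p 0.000304) and Tead2 fell by 1.06 ± 0.20, whereas Yap1 was not called (-0.34 ± 0.25). Of 20 tested FGF and EGF signalling genes 5 fell and 0 rose (25% called). Dusp6, a feedback phosphatase of ERK, fell by 1.52 ± 0.36, Erbb3, a neuregulin receptor, by 1.09 ± 0.21, and Fgfr4 by 0.93 ± 0.17. Falls numbered 3 on the basement membrane list and 2 on the YAP and TEAD list without Sox9-GFP+ array 3, and 9 on the FGF and EGF list without Ngn3-GFP+ array 1.

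Of 31 tested neuronal and guidance genes 7 rose and 6 fell, with a median of 0.22 and 12 up and 2 down after centring. The 41.9% called was near the 41.7% of all genes, so only single members are described. Robo2, a receptor for Slit guidance cues, read 7.39, 8.17 and 7.89 against 10.95, 10.08 and 9.21 (2.26 ± 0.33, adjusted p 0.000606). Robo1 (0.85 ± 0.18), the ligand Slit1 (0.79 ± 0.13) and the neurofilament Nefm (1.31 ± 0.32) rose as well. Nrp1, a receptor for semaphorins and VEGF, read 9.72, 9.15 and 9.46 against 7.40, 7.83 and 8.17 (-1.64 ± 0.22, adjusted p 0.000308), and its family's ligand Sema3e fell by 0.92 ± 0.21. The 6 falls were 3 without Ngn3-GFP+ array 2 or any 1 of the Sox9-GFP+ arrays.

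**Figure D4:**
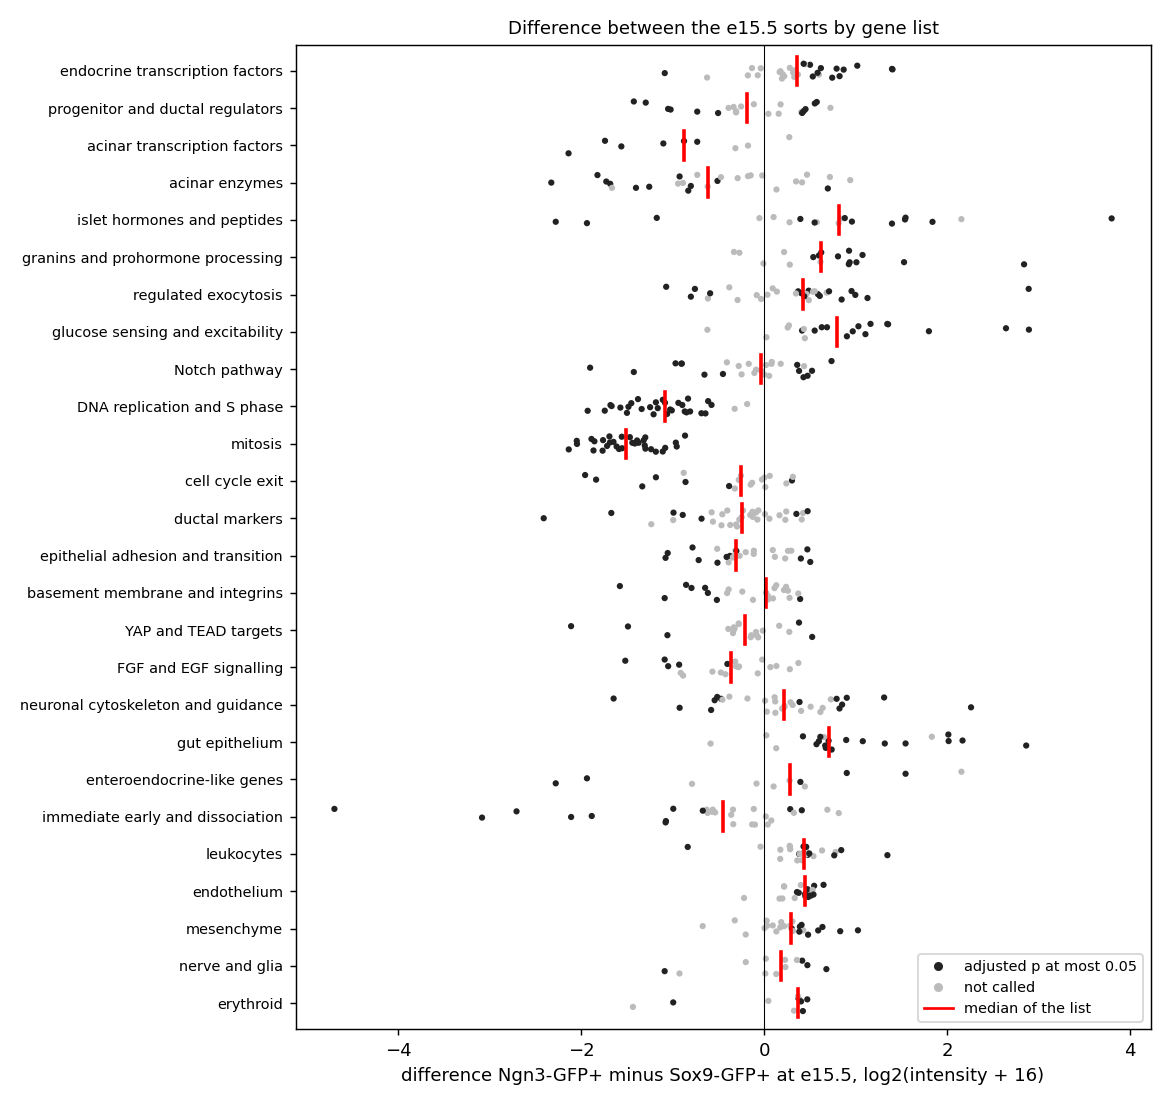
Difference between the sorts (horizontal axis, log2(intensity + 16) scale) for each tested member of the 26 gene lists, black where the adjusted p was at most 0.05 and grey otherwise, with the median of each list in red. The mitosis and replication lists lie wholly below 0, the glucose sensing, granin and hormone lists lie mostly above it, and most others straddle it.

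The largest fall that the naming rule covers was in an immediate early gene, a class that responds within minutes to growth signals and also to tissue dissociation. Egr2 read 9.77, 10.64 and 10.37 in Sox9-GFP+ cells against 5.84, 5.35 and 5.50 in Ngn3-GFP+ cells, 25.9-fold lower (-4.70 ± 0.30, adjusted p 1.23e-06). Nr4a1 read 8.98, 9.85 and 9.79 against 6.97, 6.19 and 6.22 (-3.08 ± 0.23, adjusted p 5.13e-06). Ier2 fell by 2.11 ± 0.24 and Klf6 by 1.88 ± 0.30. Of 28 tested genes of this class 9 fell and 2 rose (median -0.45), and Fos, its best-known member, was not called (-0.62 ± 0.31, adjusted p 0.12; 0.0447 without Sox9-GFP+ array 1). The falls numbered 6 without Sox9-GFP+ array 2 or 3 and 12 without array 1. The summed intensity of the 28 was 28827, 43329 and 41177 in the Sox9-GFP+ arrays and 27204, 26839 and 27147 in the Ngn3-GFP+ arrays. Sox9-GFP+ array 1 was thus near the Ngn3-GFP+ range in this sum, though not in Egr2 or Nr4a1. Atf3, another large fall, read 9.14, 10.65 and 10.63 against 9.13, 4.78 and 8.39 (-2.71 ± 0.79, limma, adjusted p 0.0163). Sox9-GFP+ array 1 was level with Ngn3-GFP+ array 1 in Atf3. The Atf3 call was lost without Sox9-GFP+ array 2 (adjusted p 0.0565) or 3 (0.062). Whether handling before the sort differed between the groups was not tested.

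Other large falls outside the lists were those of Cnmd, the cartilage protein chondromodulin, Psg17, a pregnancy-specific glycoprotein, Gjb2, a gap junction connexin, P2rx1, an ATP-gated channel of acinar cells, and Mpzl2, an epithelial adhesion protein. Cnmd read 10.94, 11.96 and 12.39 against 8.65, 8.13 and 8.09 (-3.47 ± 0.28, adjusted p 9.84e-06), and Psg17 read 9.05, 9.70 and 9.53 against 6.71, 6.23 and 6.40 (-2.98 ± 0.18, adjusted p 9.05e-07). Psg17 belongs to a large family of similar genes, which its probe set may not tell apart. Gjb2 (-2.65 ± 0.30), P2rx1 (-2.44 ± 0.34) and Mpzl2 (-2.41 ± 0.54) fell without overlap.

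Intestinal genes were high in single Ngn3-GFP+ arrays. Fabp2, the intestinal fatty acid binding protein, read 5.19, 4.78 and 5.01 in the Sox9-GFP+ arrays and 5.63, 7.93 and 10.02 in the Ngn3-GFP+ arrays (2.87 ± 0.98, adjusted p 0.0317). The goblet cell products Clca1 and Tff3 followed the same order. Clca1 read 6.22, 6.37 and 6.26 against 6.71, 7.53 and 12.78 (2.72 ± 1.02, adjusted p 0.046), and Tff3 7.85, 8.08 and 8.03 against 8.30, 9.27 and 12.90 (2.17 ± 0.76, adjusted p 0.0356). Mptx1, a pentraxin of intestinal Paneth cells, read 5.24, 4.84 and 5.09 against 5.30, 8.77 and 11.48 (3.46 ± 1.01, adjusted p 0.0164). Ngn3-GFP+ array 1 was at or just above the Sox9-GFP+ range in these genes, and array 3 was far above. The SD among the Ngn3-GFP+ arrays was 3.29 for Clca1 and 3.10 for Mptx1, against 0.07 and 0.20 among the Sox9-GFP+ arrays. The pooled SEs of these genes therefore understate the spread of the Ngn3-GFP+ group. Without Ngn3-GFP+ array 3 the difference was 1.79 ± 0.92 for Fabp2, 0.84 ± 0.23 for Clca1, 0.80 ± 0.25 for Tff3 and 1.98 ± 0.73 for Mptx1. Muc13, a membrane mucin, was raised in all 3 (7.05, 8.37 and 9.54 against 6.29, 6.31 and 6.31), and so was the intestinal factor Cdx2 to a small extent (7.56, 7.67 and 7.63 against 6.85, 7.05 and 6.95).

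Of 21 tested genes of the gut list 16 rose and 0 fell, with a median of 0.71; 12 rose without Ngn3-GFP+ array 3, 11 without array 2, 10 without Sox9-GFP+ array 1 or 3, and 8 rose and 1 fell after quantile normalization. Fabp2 was not called without Ngn3-GFP+ array 3 (adjusted p 0.129) or 2 (0.0629) or without any 1 of the Sox9-GFP+ arrays (0.0603 to 0.0803), and Clca1 (0.0916 to 0.104) and Tff3 (0.074 to 0.0831) not without any 1 of the Sox9-GFP+ arrays. Glp1r, G6pc2, Slc2a2, Slc30a8 and Sytl4 had another order and were highest in Ngn3-GFP+ array 1. The part of gut cells in the peptides Gip, Cck, Sct and Gast was not tested.

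**Figure D5:**
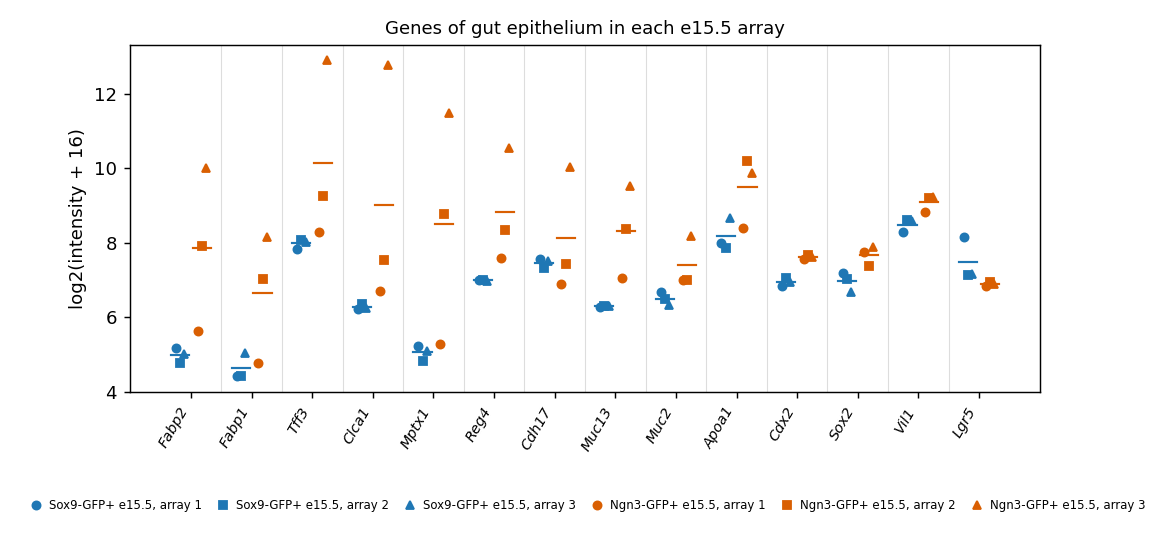
Level (vertical axis, log2(intensity + 16)) of 14 gut epithelial genes in each of the 6 arrays, with Sox9-GFP+ cells in blue, Ngn3-GFP+ cells in orange, a marker shape for each array and a short line at each group mean. Fabp2, Tff3, Clca1 and Mptx1 climb to 10.02, 12.90, 12.78 and 11.48 in Ngn3-GFP+ array 3, while array 1 lies near the Sox9-GFP+ arrays.

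Markers of leukocytes and endothelium were mostly dim and those of mesenchyme less so, and part of the genes on lists of other cell types rose slightly in Ngn3-GFP+ cells. Of 24 tested leukocyte genes 8 rose and 1 fell (median 0.43), of 20 endothelial genes 11 rose and 0 fell (0.45), of 24 mesenchymal genes 9 rose and 0 fell (0.30), and of 9 erythroid genes 4 rose and 1 fell (0.37). The shares called on the leukocyte and mesenchymal lists, 37.5% each, were below the 41.7% of all genes. On the endothelial and erythroid lists they were 55% and 55.6%. In the dimmest quartile of all genes 1870 of 4221 rose. The median difference of that quartile, 0.35, was of the size of these list medians. After quantile normalization 3 leukocyte, 1 endothelial, 4 mesenchymal and 0 erythroid genes rose. That quartile ends at a mean level of 7.40, below the mean of the mesenchymal and erythroid lists in every array. The leukocyte rises numbered 3 and the mesenchymal 4 without Sox9-GFP+ array 2, the endothelial 5 without Sox9-GFP+ array 1, and the erythroid 1 without Sox9-GFP+ array 3. Ptprc, the common leukocyte antigen, read 6.60, 6.49 and 6.56 against 7.19, 6.93 and 6.93, higher in every Ngn3-GFP+ array, and was not called (0.46 ± 0.43). Its pooled SE takes in Sox9-GFP+ arrays 1 to 3 of p23, at 8.12, 10.64 and 10.09, so the miss does not show equal levels. Both e15.5 sorts were far below the 14.28 to 14.64 of the GFP- cells of p23. Pecam1, which defines endothelium, rose from between 6.22 and 6.54 to between 6.85 and 7.27 (0.65 ± 0.21, adjusted p 0.0231; 0.0718 without Ngn3-GFP+ array 2 and 0.082 without Sox9-GFP+ array 1). Col1a1, a fibroblast collagen, rose by 0.48 ± 0.16 (adjusted p 0.0304; 0.113 without Ngn3-GFP+ array 3, 0.127 without Sox9-GFP+ array 1 and 0.0654 without Sox9-GFP+ array 2). The mesenchymal marker Dcn read 9.08, 9.57 and 10.18 against 8.91, 10.56 and 10.22, and Col3a1 8.91, 9.24 and 9.36 against 9.04, 9.47 and 9.66. Neither was called, nor was Pdgfra (-0.32). Sox10, which defines glia, differed by 0.02 ± 0.13. The mesothelial gene Msln rose from 6.81, 6.81 and 6.84 to 8.14, 7.95 and 7.45 (1.03 ± 0.16, adjusted p 0.000738). Of 12 nerve and glial genes 3 rose and 1 fell (33.3% called). Of 11 enteroendocrine-like genes, most of them counted above, 3 rose and 2 fell (45.5% called). Summed over the leukocyte list the intensity was between 2765 and 2979 in the Sox9-GFP+ arrays and between 3065 and 4341 in the Ngn3-GFP+ arrays. Over the endothelial list it was between 2352 and 2465 and between 2921 and 3327. Over the mesenchymal list it was 5791, 6407 and 7793 in Sox9-GFP+ arrays 1 to 3 and 6284, 8840 and 9388 in Ngn3-GFP+ arrays 1 to 3, with overlap. Over the erythroid list it was 4418, 3288 and 3469 against 3134, 2127 and 2330, lower in every Ngn3-GFP+ array despite the rises counted above. Over the nerve and glial list it was 3409, 3934 and 4587 against 3501, 2720 and 3470, with overlap. The part of such cells in the other differences was not tested.

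The series holds a second sort in which a Sox9-GFP+ group serves as reference, the GFP- against the Sox9-GFP+ cells of p23, and it shares no array with the e15.5 comparison. The GFP- cells of p23 are a mixture of what carries no high GFP, rich in leukocyte and acinar RNA, and the Ngn3-GFP+ cells of e15.5 were not sorted for lack of Sox9-GFP. The values of both sorts are therefore set side by side with no shared factor isolated. The difference at e15.5 minus the difference at p23 passed for 45.3% of the genes tested. The reporter of Sox9 set the reference group apart in both sorts, so a lower Sox9 level outside it was given in part by the selection. Sox9 itself fell at both ages, by 2.37 at p23 (difference of the differences 1.07, adjusted p 0.0638), and so did the Notch target Hes1, by 1.88 at p23 (0.46, adjusted p 0.26), and Ccn1, which fell by 2.21 at p23 (0.10, adjusted p 0.84). These misses do not show that the falls were equal.

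The cell division genes differed between the sorts. The mitosis list had a median of -0.25 at p23 against -1.51 at e15.5, and 23 of its 32 genes were lower in the e15.5 than in the p23 difference, with 0 higher, where 18.3% of all genes were. The acinar factors turned around, with a median of 1.21 at p23 against -0.87, and 6 of 9 lower at e15.5. Of 33 ductal markers 25 were higher in the e15.5 than in the p23 difference and 1 was lower, where 27.1% of all genes were higher. Krt19 fell by 2.88 at p23 and was not called at e15.5 (difference of the differences 2.79, adjusted p 1.3e-05).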

How the data were processed

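RNA of sorted cells (20 ng total RNA a sample) had been amplified from poly(A)+ RNA and hybridised as 3.75 ug of biotinylated cDNA, per the labels' protocols. The deposited values are probe set intensities on a linear scale, made by the authors with Affymetrix Expression Console 1.1 and PLIER, per the submitters' processing notes; any step that normalized arrays to each other is not stated in them. Each sample has 1 array, whose number limits the precision; arrays give no read depth.

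Of 35557 probe sets 21789 name 1 gene, 1621 several and 12147 none. Only the first were used; 21698 matched RefSeq by gene identifier. For 999 of the 19938 genes with several probe sets the brightest over the 15 arrays was kept. The 16883 genes with 3 or more arrays above an intensity of 97.8, the 30th percentile over the whole table, were tested on log2(intensity + 16), with no further normalization, with limma 3.58.1 (R 4.3.3), lmFit and eBayes over the 5 group means of all 15 arrays, at a Benjamini-Hochberg adjusted p of at most 0.05. For 1 gene alone an exact permutation test of 3 against 3 arrays cannot go below 0.1. On simulated data for this comparison over 16883 genes the script recovered 40.3% of 1.5-fold, 77.6% of 2-fold and 97.0% of 4-fold changes and called 11 genes falsely. The simulated noise was normal, with the same spread in every group, no shift with level and few changed genes. It lacks the wider spread of the Ngn3-GFP+ arrays, so it checks the script and gives no error rate for the calls above.

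The 26 gene lists (616 genes, of which 568 were tested, 9 were too dim and 39 not analysed here) and the comparison itself were chosen with earlier results of these data known, and no set test was run. Named genes are Sox9 and Neurog3, the 10 largest rises and falls among called genes whose groups do not overlap and whose higher mean is above the median intensity (clone names skipped), up to 8 called members a list by size, any member of the endocrine factor, hormone, Notch, progenitor and acinar factor lists, and Ptprc, Pecam1, Col1a1, Sox10 and Hbb-y. Outside that rule, chosen after their values were seen, are genes named for not being called (such as Ctrb1, Chgb, Tk1, Krt19, Epcam and Fos), Mki67, Pcna, Mcm3, Cdx2, Clca1 as a gut gene, other members given beside a called one, and the miRNA loci. Probe sets of similar gene families may read each other's RNA. Alternatives varied the offset, the filter, the normalization, the choice of probe set, the arrays in the fit, the variance model, a weight for each array, the threshold, and a block on the replicate number. Promoter and miRNA sequences are RefSeq's (GRCm38.p6). Figures were drawn with matplotlib 3.10.9.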

Additional observations from a re-analysis of the deposited data

Results flagged for a closer look

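Of 190 genes named by the rule, 110 passed the test of the difference between the e15.5 sort (Ngn3-GFP+ minus Sox9-GFP+) and the p23 sort (GFP- minus Sox9-GFP+), and 25 of them were called in opposite directions at the 2 ages. Of all genes tested 45.3% passed that test; most of the 190 were named for being called at e15.5, so nothing is read from their higher share. Each value below is the e15.5 difference minus the p23 difference on the log2(intensity + 16) scale. The p23 GFP- cells are a mixture with Ptprc, the leukocyte antigen, at 14.28 to 14.64, so cell type and age cannot be told apart in these values.

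Genes that fell at e15.5 and rose at p23 included acinar regulators and products: Ptf1a (-4.26), Rbpjl (-3.09), Bhlha15 (-2.92), Gata4 (-1.94), Myc (-3.28), Cckar (-3.95), Serpini2 (-2.33) and P2rx1 (-4.81). The connexin Gjb2 (-4.27), the peptide gene Gal (-3.77), the replication gene Rrm2 (-3.06), the receptor Nrp1 (-2.69) and the monoamine transporter Slc18a2 (-1.46) did the same.

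Genes that rose at e15.5 and fell at p23 included the islet factors Pax6 (1.86), Rfx6 (1.61) and Mlxipl (3.06), the glucose transporter Slc2a2 (4.34), the calcium-binding protein Scgn (1.78) and the factor Onecut2 (2.41). Robo1 (1.73), the catenin Ctnnd2 (2.14), the laminin subunit Lama3 (1.5), the mesothelial gene Msln (2.06), the surfactant protein Sftpd (0.90) and the kinase Lats1 (0.69) moved likewise. The e15.5 rise was called in 1 of the 6 fits that left out 1 array for Ctnnd2, in 3 for Sftpd, Lats1 and Onecut2, and in 4 for Lama3 and Rfx6. Of the falls above, those of Gal and Gata4 were called in 2.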

How the results depend on the processing

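The 7034 calls (3933 higher, 3101 lower) numbered 4072 after quantile normalization, with 1730 higher, and 178 when differences were tested against 1.5-fold (limma's treat), with 24 higher and 154 lower. A filter at the median intensity, which tests fewer genes, left 1984 higher. Leaving out 1 array at a time gave 3757 to 6839 calls, 1896 to 3672 higher and 1861 to 3167 lower, and 5984 to 7799 for the difference between the e15.5 and p23 differences. The cause of these shifts was not tested. With the replicate number as a block 6246 genes were called, 6204 of them among the 7034. Same-numbered arrays of the 2 groups did not deviate together (correlations -0.18, -0.00 and 0.04). The Ngn3-GFP+ arrays had a wider spread of their own (median SD 0.21 against 0.09), which could hide a shared batch. These correlations therefore do not show whether the numbers pair the arrays, and the labels do not say. The 6 e15.5 arrays alone gave 5916 calls and median centring 7646. Of the 583 named and list genes, the only ones followed through the alternatives, 298 were called; none of these turned direction, and 113 lost the call without at least 1 array. Dim probe sets limit the size of what can be read, since folds shrink toward the offset.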

Other observations

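The following genes were picked after their values were seen. Id1 and Id3, inhibitors of basic helix-loop-helix factors and targets of BMP signalling, fell in Ngn3-GFP+ cells. Id1 read 10.20, 9.46 and 9.70 in Sox9-GFP+ cells against 6.89, 7.98 and 7.79 in Ngn3-GFP+ cells (-2.23 ± 0.28, limma, adjusted p 0.0002). Id3 read 9.47, 8.83 and 8.82 against 5.81, 6.99 and 7.75 (-2.19 ± 0.38, adjusted p 0.00145). In both genes every Ngn3-GFP+ array was below every Sox9-GFP+ array, with array 1 the lowest.

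The liver products Afp, alpha-fetoprotein, and Alb, albumin, were uneven among the arrays. Afp read 9.55, 8.92 and 9.78 in Sox9-GFP+ cells against 7.68, 10.98 and 7.23 in Ngn3-GFP+ cells, and Alb read 6.37, 7.56 and 9.0 against 9.11, 10.97 and 5.49. Ngn3-GFP+ array 2 was the highest of the 6 in both, and the groups overlapped.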
